A study of Mus musculus with 10 samples.

Results

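The genes described here are 9 genes of inflammasome and lytic cell death pathways, chosen by name with earlier results of these data known. They are the sensors Nlrp1b and Nlrp3, the adaptor Pycard and the caspases Casp1, Casp4 and Casp8. The others are the pore former Gsdmd and the necroptosis genes Ripk3 and Mlkl. All 9 were found, once each, among the 25814 genes of the 10 gene tables. RNA-seq was done in 5 groups of 2 libraries. Primary keratinocytes from tail skin of adult C57/B6 mice were cultured alone or together with CD8+ T cells, which were washed off before lysis. Splenic CD8+ T cells were enriched with microbeads and activated with antibodies to CD3 and CD28 for 1 d (activated T cells). Such activated T cells were then kept for 1 d in keratinocyte medium (labels) or its 4:1 mixture with X-vivo medium (methods), here T cells in mixed medium, or were co-cultured with keratinocytes. The labels and the methods give 1 d of co-culture, whereas the deposited design text gives 1 h. All T cells thus had the same activation, and no group holds resting T cells. The keratinocyte and activated T-cell libraries carry replicate numbers 1 and 2 in their labels, and the other T-cell libraries are called a and b here, letters that only name them. Nothing states how many animals stood behind a library, so p-values measure the spread between these libraries, which may be technical.

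Inflammasomes are assemblies in which a sensor such as Nlrp1b or Nlrp3 recruits Casp1, in most cases through the adaptor Pycard (also called ASC). Active Casp1 matures interleukin cytokines and cleaves Gsdmd, whose released end forms pores in the plasma membrane, a lytic death called pyroptosis. Casp4 senses bacterial lipopolysaccharide in the cytosol and cleaves Gsdmd as well. Casp8 starts apoptosis below death receptors and restrains necroptosis, in which the kinase Ripk3 phosphorylates Mlkl, which then breaches the membrane. In skin, inflammasome activity of keratinocytes is known from inflammation and from the response to ultraviolet light. These steps run through cleavage and phosphorylation, which RNA levels do not measure.

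The libraries held 12864931 to 18019609 exon reads. Levels are given in RPKM, reads scaled to exon length and library total. At this depth 3 reads, taken as the floor, corresponded to 0.158 to 0.212 RPKM for 1 kb of exons, for counting error only. All 10 keratinocyte markers were read in the 4 keratinocyte libraries, with sums of 14169 to 19095 RPKM. Krt14, at 7240 to 11836 RPKM, was the largest part. The highest sum was that of co-cultured replicate 2, where Krt14 and Perp were highest and Krt5 and Krt15 in between. Trp63, Dsg3, Cdh1, Epcam, Sfn and Itga6 were lowest in that library. Cdh1 was at 49.4 RPKM there, against 218 to 300 RPKM in the other keratinocyte libraries. Cd8a and Cd8b1 stood at 110 to 762 RPKM in the 6 T-cell libraries, so the defining markers of both cell types were present. Cd4 was read there too, at 16.8 to 102 RPKM. The keratinocyte libraries also held T-cell marker RNA. The 10 T-cell markers summed to 123 and 478 RPKM in replicates 1 and 2 of keratinocytes alone and to 157 and 861 RPKM in co-cultured keratinocytes. Cd8a itself was at 0.118 to 1.16 RPKM there, against 209 and 312 RPKM in co-cultured T cells. In turn, the keratinocyte marker sum was 111 and 60.4 RPKM in co-cultured T cells and 9.94 to 30.1 RPKM in the other T cells. Myeloid markers, 9 of 10 in the tables, summed to 24.6 RPKM in replicate 1 and 98.0 RPKM in replicate 2 of activated T cells and to 42.0 to 85.5 RPKM in the other libraries, with Cd207 at 0 everywhere. The 4 B-cell markers summed to 29.4 and 31.0 RPKM in activated T cells and to 44.2 and 92.3 RPKM in mixed medium. The same sum was 16.6 and 27.2 RPKM in co-cultured T cells and 0.531 to 3.85 RPKM in keratinocyte libraries. In bulk RNA, fewer cells of a type and less RNA per cell cannot be told apart.

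**Figure D1:**
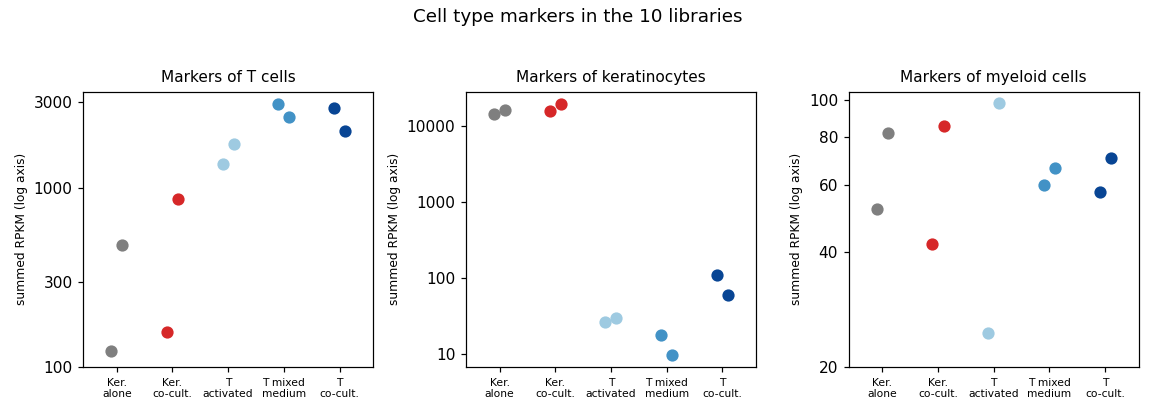
Summed RPKM (log axis) of T-cell, keratinocyte and myeloid markers, each dot 1 library, with replicate 1 or library a on the left of each group. Replicate 2 of either keratinocyte group holds more T-cell and myeloid marker RNA than replicate 1, and co-cultured T cells hold more keratinocyte marker RNA than the other T cells.

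Levels per exon length set the 9 genes into 3 ranks. Both sensors were at or near 0, with at most 0.340 RPKM in any library. Casp4 ranged from 1.27 to 5.07 RPKM. The other 6 genes reached at least 18.6 RPKM in some library, with highest values of 53.5 RPKM for Pycard and 47.4 RPKM for Casp8. Ripk3, between 10.9 and 23.8 RPKM, varied least among them, and Mlkl, between 1.43 and 28.2 RPKM, most.

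**Figure D2:**
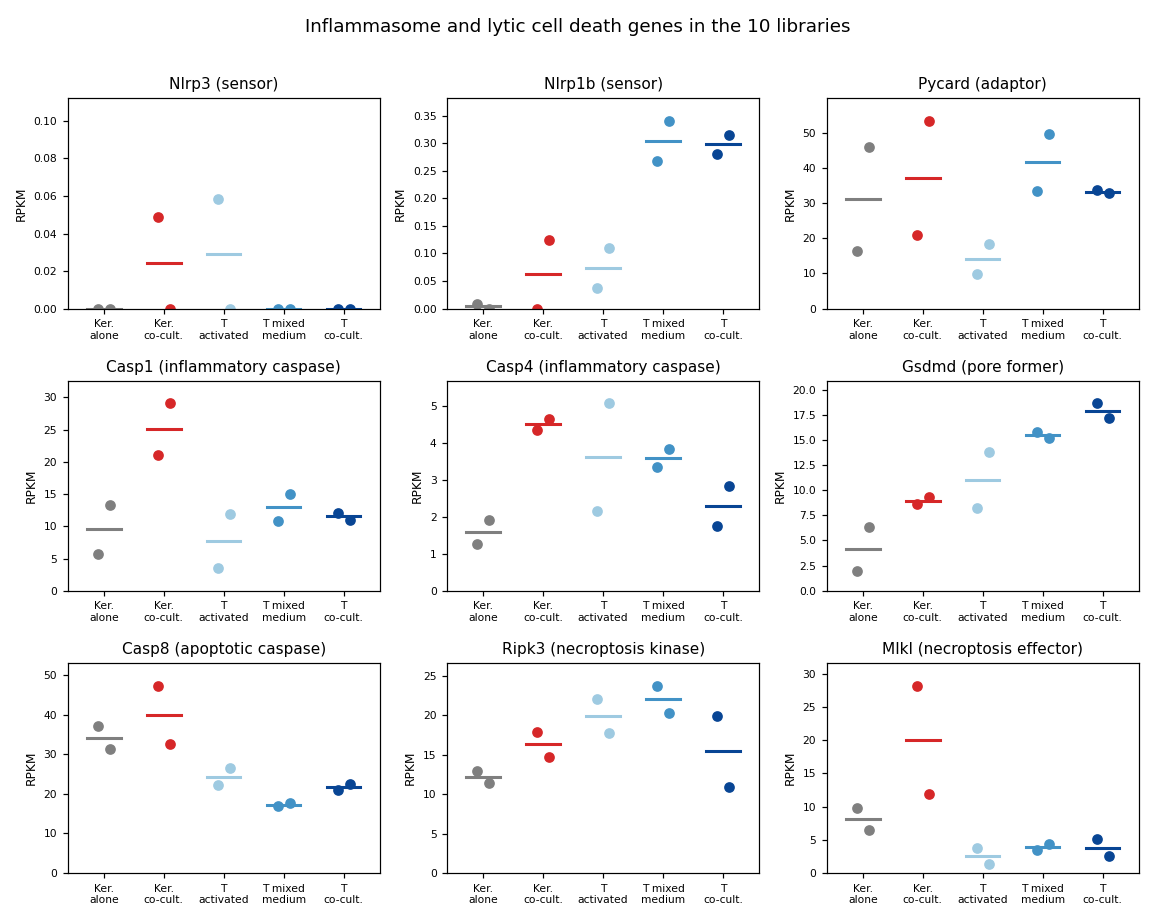
RPKM of the 9 genes in the 5 groups on linear axes from 0, each dot 1 library and each bar the mean of 2, with replicate 1 or library a on the left. Casp1 at 21.1 and 29.1 RPKM and Mlkl at 28.2 and 11.9 RPKM are highest in co-cultured keratinocytes, and Gsdmd at 18.6 and 17.2 RPKM in co-cultured T cells.

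The first comparison asked whether co-culture with activated CD8+ T cells changed these genes in keratinocytes. Per the methods, co-cultures held X-vivo medium mixed into keratinocyte medium, while keratinocytes were otherwise kept in keratinocyte medium. Whether the sequenced keratinocytes alone received the mixture is not stated. Which part of a difference came from cell contact, secreted factors or medium was not tested. Casp4, Casp1, Mlkl, Gsdmd and Ripk3 had higher RPKM in both co-cultured libraries than in both libraries of keratinocytes alone. Fitted differences were close to 3-fold for Casp4 and Casp1, while Pycard and Casp8 overlapped between the groups. No difference passed adjustment over all genes. The differences were tested with the quasi-likelihood method of edgeR, applied to the exon reads of the 4 keratinocyte libraries, in which 7 of the 9 genes passed the filter on low counts.

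Casp1, the protease of the inflammasome, was read at 5.74 and 13.4 RPKM in lone keratinocytes and at 21.1 and 29.1 RPKM after co-culture. The lower co-cultured library thus lay above the higher library alone. The log2 fold change was 1.46 (SE 0.54, 2.75-fold, unadjusted p = 0.0443, edgeR adjusted p = 0.658), and 0.95 or 2.24 without replicate 1 or replicate 2 of keratinocytes alone. Casp4 was read at 1.27 and 1.91 RPKM alone and at 4.35 and 4.64 RPKM after co-culture. Its libraries were closer within a group than those of Casp1. The log2 fold change of Casp4 was 1.57 (SE 0.47, 2.97-fold, unadjusted p = 0.0205, edgeR adjusted p = 0.658).

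Gsdmd, the substrate of both caspases, was read at 1.98 and 6.35 RPKM alone and at 8.61 and 9.31 RPKM after co-culture. The co-cultured libraries lay close together, whereas those of keratinocytes alone, with 71 and 204 reads, differed more from each other than the higher of them did from the nearer co-cultured library. Its log2 fold change of 1.16 (SE 0.65, unadjusted p = 0.133) fell to 0.53 without replicate 1 of keratinocytes alone and was 2.28 without replicate 2. Pycard was read at 16.3 and 46.1 RPKM alone and at 20.9 and 53.5 RPKM after co-culture. Replicate 2 was the higher library in both groups. The fitted log2 fold change of Pycard was 0.34 (SE 0.73, edgeR adjusted p = 0.865), and it was -0.25 without replicate 1 of keratinocytes alone and -0.60 without replicate 2 of co-cultured keratinocytes.

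Mlkl, the effector of necroptosis, was read at 9.83 and 6.46 RPKM alone and at 28.2 and 11.9 RPKM after co-culture. Here replicate 1 was the higher library in both groups, the reverse of Pycard and Casp1. The log2 fold change was 1.35 (SE 0.49, 2.56-fold, unadjusted p = 0.0401, edgeR adjusted p = 0.658), with 0.69 and 1.78 when replicate 1 or replicate 2 of co-cultured keratinocytes was left out. Its kinase Ripk3 differed less, with 12.9 and 11.5 RPKM alone and 18.0 and 14.8 RPKM after co-culture (log2 fold change 0.49, SE 0.29, unadjusted p = 0.153). Casp8 was read at 37.0 and 31.3 RPKM alone and at 47.4 and 32.6 RPKM after co-culture. These libraries overlapped, and the log2 fold change was 0.29 (SE 0.30, edgeR adjusted p = 0.750).

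The sensors stayed outside the test in keratinocytes. Nlrp1b had 1 and 0 reads alone and 0 and 13 reads after co-culture, so all but 1 of its reads came from a single library. Nlrp3 had 0 and 0 reads alone and 3 and 0 reads after co-culture. Its 3 reads stood at the floor of 3 reads, which for Nlrp3 means 0.0390 to 0.0523 RPKM depending on the library. At this depth, no difference in the sensors was detectable in keratinocytes.

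With edgeR 0 of 7 genes passed an adjusted p of 0.05, and so did 0 of 12515 genes in all (0%). At an unadjusted p under 0.05 there were 3 of 7 genes, against 7.20% of all genes tested. DESeq2 called none of the 7 and 1.52% of all genes, and limma on RPKM called none of the 7 with either pseudocount. RPKM of both co-cultured libraries above both others was met by 5 of 7 genes and by 19.8% of all genes tested, and below both others by 0 of 7 and 24.3%. All 7 fitted fold changes were above 0, as were 51.3% of those of all genes. The median log2 fold change of the 7 was 1.16 beside 0.02 over all genes. The genes were chosen with earlier results of these data known, so these shares are descriptions and no independent support. The 7 stayed uncalled with any library left out, although without replicate 1 of co-cultured keratinocytes 1164 genes were called in all.

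T-cell RNA in the keratinocyte libraries was read beside these values. The T-cell marker sum of 157 RPKM in co-cultured replicate 1 lay between the sums of 123 and 478 RPKM of keratinocytes alone, and in this library Casp1, Casp4, Gsdmd, Ripk3 and Mlkl were above both libraries of keratinocytes alone. Co-cultured T cells themselves had 12.1 and 11.0 RPKM of Casp1, 1.74 and 2.83 RPKM of Casp4 and 5.12 and 2.50 RPKM of Mlkl, each below both co-cultured keratinocyte libraries. They had more Gsdmd, with 18.6 and 17.2 RPKM, and their 20.0 and 10.9 RPKM of Ripk3 overlapped with co-cultured keratinocytes. Pycard, Casp1, Casp4 and Gsdmd were higher in replicate 2 than in replicate 1 of both keratinocyte groups. So was Cd4 (11.4 and 43.5 RPKM alone, 15.0 and 84.5 RPKM after co-culture). The myeloid gene Lyz2 was higher there too (6.69 and 27.4 RPKM alone, 7.30 and 37.6 RPKM after co-culture). The myeloid gene Cd68 went the other way (40.7 and 39.4 RPKM alone, 29.7 and 24.0 RPKM after co-culture). The other myeloid markers with reads in these libraries were higher in replicate 2. The mix of T-cell markers in the keratinocyte libraries differed from that in co-cultured T cells. In replicate 2 of co-cultured keratinocytes, Cd4 was at 133%, Cd3g at 53.1% and Cd8a at 0.446% of the mean in co-cultured T cells. Levels in co-cultured T cells may therefore not be those of the cells behind this RNA. The part of T-cell and myeloid RNA in the values of these genes was not tested.

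**Figure D3:**
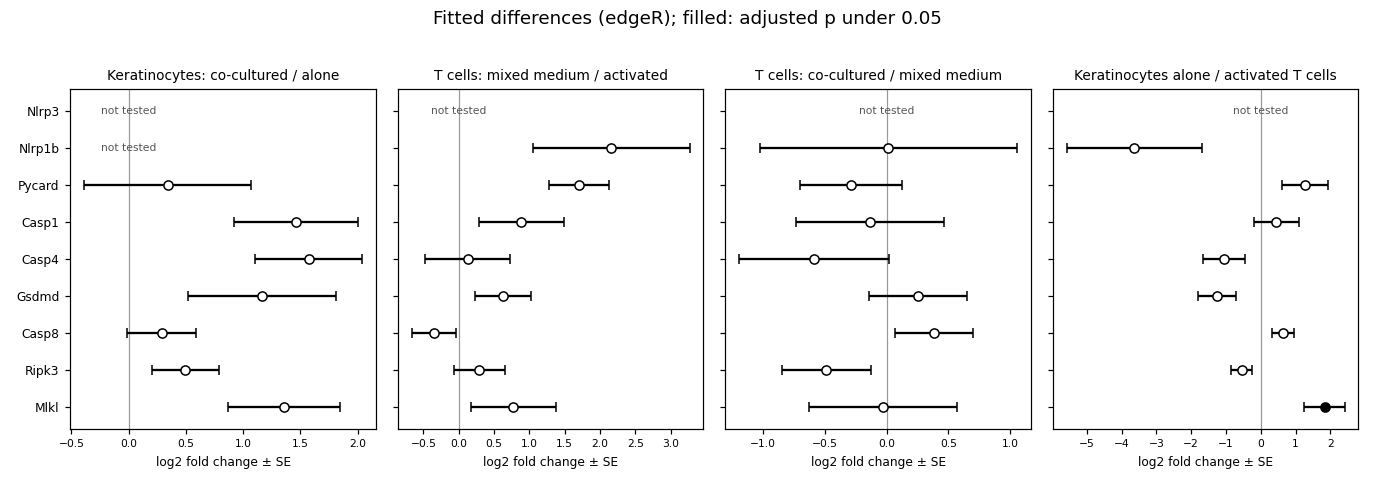
Fitted log2 fold change (x axis) ± SE of each gene in 4 comparisons, with filled symbols for an adjusted p under 0.05. In keratinocytes all 7 estimates lie to the right of 0 with open symbols, and Mlkl between keratinocytes alone and activated T cells is filled at 1.83.

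Casp1 and Casp4 are neighbours on chromosome 9. In the GRCm38 coordinates of the tables Casp1 spans chr9:5298517-5307265 and Casp4 chr9:5308828-5336783, both on the plus strand and 1562 bases apart. The next gene of the tables is Casp12, a further caspase of this family, at chr9:5345430-5373032 on the same strand, 8646 bases beyond Casp4. Casp12 was looked up after its values were seen. Its reads numbered 59 and 98 without T cells and 405 and 592 after co-culture. All 3 genes of this row were thus higher in both co-cultured libraries (Casp12 log2 fold change 2.89, SE 0.50, unadjusted p = 0.0023, edgeR adjusted p = 0.528). Unlike its neighbours Casp12 had 0 reads in 5 of 6 T-cell libraries and 14 reads in library a of co-cultured T cells.

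The bases before the starts of these neighbouring genes are shown because all 3 genes were read higher in both co-cultured libraries, although none passed the test (RefSeq, GRCm38.p6, plus strand, 5′ to 3′). They cover chr9:5298267-5298516 for Casp1, chr9:5308599-5308827 for Casp4 and chr9:5345226-5345429 for Casp12. Capitals mark a match to TTCNNNGAA, the GAS letters bound by STAT factors below interferons.
Casp1: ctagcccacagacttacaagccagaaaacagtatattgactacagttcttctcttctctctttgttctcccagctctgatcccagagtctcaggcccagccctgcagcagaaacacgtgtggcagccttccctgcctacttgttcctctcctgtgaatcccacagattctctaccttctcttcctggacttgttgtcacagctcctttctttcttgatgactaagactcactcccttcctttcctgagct
Casp4: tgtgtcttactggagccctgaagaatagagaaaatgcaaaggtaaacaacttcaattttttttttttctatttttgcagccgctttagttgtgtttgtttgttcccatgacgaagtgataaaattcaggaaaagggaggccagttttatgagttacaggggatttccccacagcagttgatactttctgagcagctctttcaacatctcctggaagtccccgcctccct
Casp12: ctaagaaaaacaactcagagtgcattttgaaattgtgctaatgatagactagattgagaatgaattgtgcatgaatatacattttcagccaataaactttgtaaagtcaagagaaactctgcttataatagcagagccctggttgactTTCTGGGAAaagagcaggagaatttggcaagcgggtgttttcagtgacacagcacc
The Casp12 stretch holds 1 match, and the RefSeq promoter window of 300 bases holds 2. The stretches of Casp1 and Casp4 hold none.

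RefSeq promoters (250 bases before to 50 after a start) were at hand for 8 of the 9 genes, with 11 promoters in all, and were searched on both strands. TTCNNNGAA was in 0 of the 11, and so was GAAA followed by any 2 bases and GAAA, the core of interferon-stimulated response elements. These letters stood in 8.33% and 3.45% of all 32544 promoters of this length. GGG and CC with any 5 bases between them, the frame of kappaB sites, stood in promoters of 3 of the 8 genes (Nlrp3, Casp1 and Casp4) and of 53.5% of all genes. In the wider list of pathway genes described next, 8 of 49 genes with a promoter had the first motif (9.55% of all genes) and 7 of 49 the second (3.99%). Such matches describe letters only, and a missing match says only that the letters are not in this window.

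A wider list of 61 genes of these pathways, also chosen with earlier results known, was read in the same keratinocyte fit. Of these, 49 were tested. None passed the adjusted threshold in either direction, and 9 of 49 had an unadjusted p under 0.05 (7.20% of all genes). The median log2 fold change of the 49 was 0.31 (0.02 over all genes), with 33 of 49 above 0 (51.3%). Both co-cultured libraries were above both others in 10 of 49 genes (19.8% of all genes) and below them in 5 of 49 (24.3%). The 5 genes described next had the largest changes among those with a mean of at least 5 RPKM in either group and no overlap. Gbp2, an interferon-induced GTPase that helps expose bacterial lipopolysaccharide to Casp4, was read at 2.74 and 6.47 RPKM alone and at 579 and 203 RPKM after co-culture (log2 fold change 6.43, SE 0.84, edgeR adjusted p = 0.435). Irgm1, another such GTPase, was read at 3.47 and 9.91 RPKM alone and at 193 and 119 RPKM after co-culture. Neither gene's groups overlapped, which the rule for naming genes here required.

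Zbp1, a nucleic acid sensor that engages Ripk3, was read at 0.876 and 3.94 RPKM alone and at 41.4 and 21.0 RPKM after co-culture (log2 fold change 3.73, SE 0.85, edgeR adjusted p = 0.658). Il18bp, a secreted decoy of the Casp1 product interleukin 18, was read at 0.348 and 0.408 RPKM alone and at 15.9 and 6.41 RPKM after co-culture (log2 fold change 4.92, SE 0.59, edgeR adjusted p = 0.434). Of the other gasdermins the epidermal Gsdma went the other way, with 35.2 and 36.5 RPKM alone and 6.81 and 0.667 RPKM after co-culture (log2 fold change -3.25, SE 1.04, edgeR adjusted p = 0.658). Gsdma was therefore the more abundant gasdermin of keratinocytes alone, and in both co-cultured libraries Gsdmd stood above it. All 5, named for their large changes in these data, passed with DESeq2, which called 1.52% of all genes. On simulated data with a spread like that of these libraries, DESeq2 made more false calls than its threshold states. Limma on RPKM called no gene in this comparison with either pseudocount.

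**Figure D4:**
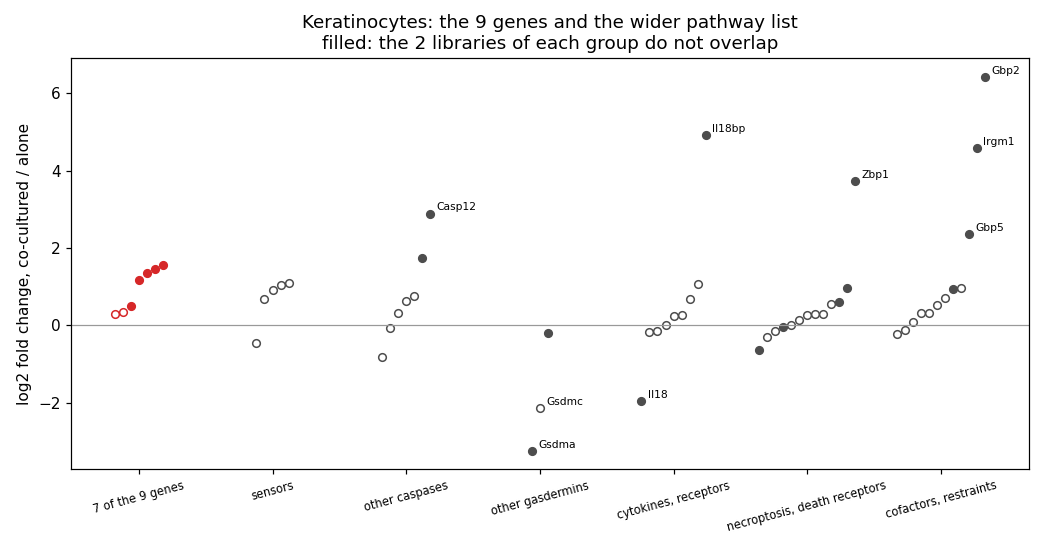
Log2 fold change (y axis) of co-cultured over lone keratinocytes for the tested genes, red for 7 of the 9 genes and grey for the wider list by role, filled where the groups do not overlap. The red dots lie between 0.29 and 1.57, below Gbp2 at 6.43 and above Gsdma at -3.25.

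The T-cell groups were compared in 1 fit of 6 libraries, in which 8 of the 9 genes were tested. Comparisons with activated T cells share these controls. T cells in mixed medium were compared with activated T cells. These groups differed in a further day of culture and, per the methods, in medium, since activation was in X-vivo medium. No group here is labelled as kept a further day in X-vivo medium, so day and medium cannot be told apart. Pycard was read at 9.88 and 18.6 RPKM in activated T cells and at 33.5 and 49.9 RPKM in mixed medium. The groups did not overlap, and the log2 fold change was 1.70 (SE 0.43, 3.24-fold, edgeR adjusted p = 0.0540), just beside the threshold. It passed with DESeq2 (adjusted p = 0.00295), with limma (adjusted p = 0.0434 and 0.0462) and with uniquely mapped reads (adjusted p = 0.0484), and over all alternatives the adjusted p ranged from 0.000516 to 0.244. It also passed without replicate 2 of activated T cells (adjusted p = 0.0489) and without library a (0.0337) or library b (0.0428) of co-cultured T cells. It did not pass without replicate 1 of activated T cells (0.236), without library a (0.0890) or library b (0.244) of T cells in mixed medium, with library size only (0.0635) or with all 10 libraries in 1 fit (0.163), and its log2 fold change ran from 1.29 to 2.30 with libraries left out.

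Nlrp1b, at the low end of detection, had 4 and 10 reads in activated T cells and 26 and 37 reads in mixed medium (log2 fold change 2.16, SE 1.11, edgeR adjusted p = 0.269). Gsdmd was read at 8.26 and 13.8 RPKM in activated T cells and at 15.8 and 15.2 RPKM in mixed medium (log2 fold change 0.62, SE 0.40). Casp8 was the gene with lower values in mixed medium, at 17.0 and 17.6 RPKM against 22.1 and 26.5 RPKM (log2 fold change -0.35, SE 0.32). The groups of Casp1, Casp4, Ripk3 and Mlkl overlapped. EdgeR called 0 of 8 genes, beside 6.54% of all genes tested (2.32% higher, 4.22% lower). An unadjusted p under 0.05 was found for 1 of 8 (25.0% of all genes), and DESeq2 called 1 of 8, Pycard (16.7%). Both libraries in mixed medium were above both others in 3 of 8 genes (22.1% of all genes) and below them in 1 of 8 (32.5%).

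T cells co-cultured with keratinocytes were compared with the same activated T cells, from which they also differed in the further day and the medium. Pycard was read at 33.8 and 33.0 RPKM after co-culture (log2 fold change 1.41 against activated T cells, SE 0.42, edgeR adjusted p = 0.0710). Leaving out replicate 2 of activated T cells brought this to an adjusted p of 0.0490, and replicate 1 to 0.307. Gsdmd, at 18.6 and 17.2 RPKM, was above both activated libraries (log2 fold change 0.88, SE 0.40, edgeR adjusted p = 0.190). Nlrp1b had 27 and 28 reads, again above both (log2 fold change 2.18, SE 1.11, edgeR adjusted p = 0.238). Casp8, at 21.0 and 22.4 RPKM, had a log2 fold change of 0.03, and -0.14 when scaled by library size only. EdgeR called 0 of 8 genes beside 10.3% of all genes tested (4.59% higher, 5.72% lower). An unadjusted p under 0.05 was found for 1 of 8 (28.8% of all genes), and DESeq2 called 1 of 8, Pycard (20.4%). Both co-cultured libraries were above both others in 3 of 8 genes (23.6% of all genes) and below them in 0 of 8 (33.9%).

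Replicates 1 and 2 of activated T cells differed in several of these genes and in T-cell and myeloid markers. Casp1 was read there at 3.46 and 11.9 RPKM, Casp4 at 2.15 and 5.07 RPKM and Mlkl at 3.73 and 1.43 RPKM. Lyz2 stood at 10.6 and 57.4 RPKM and Cd4 at 16.8 and 102 RPKM. Among the T-cell markers, Cd8a (176 and 110 RPKM), Cd8b1 (277 and 141 RPKM) and Cd5 (125 and 108 RPKM) were lower in replicate 2, the others higher. Of the myeloid markers, Clec4e and Cd14 were lower in replicate 2, Cd207 was at 0 and the others were higher. Whether the cells behind these markers carried the Casp1 and Pycard reads was not tested.

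The direct comparison of co-cultured T cells with T cells in mixed medium asked what keratinocytes added to the medium. Here Casp4 was read at 3.35 and 3.83 RPKM in mixed medium and at 1.74 and 2.83 RPKM after co-culture (log2 fold change -0.59, SE 0.60). Ripk3 was read at 23.8 and 20.3 RPKM in mixed medium and at 20.0 and 10.9 RPKM after co-culture (log2 fold change -0.49, SE 0.36). Gsdmd and Casp8 were the genes with both co-cultured libraries above, with log2 fold changes of 0.25 (SE 0.39) and 0.38 (SE 0.32). Of 8 genes 0 passed with edgeR (0.261% of all genes), 0 with DESeq2 (0.733%) and 0 had an unadjusted p under 0.05 (3.45%). Groups not overlapping were found in 2 of 8 genes upward (14.2% of all genes) and 2 of 8 downward (13.1%). The median of the 8 was -0.08. These groups also differed in B-cell marker RNA, with sums of 44.2 and 92.3 RPKM in mixed medium and 16.6 and 27.2 RPKM after co-culture. The part of B-cell RNA in the values of the 8 genes was not tested.

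In the wider list, 48 genes were tested in T cells. In mixed medium 1 of 48 rose against activated T cells (2.32% of all genes) and none fell (4.22%). This was Tnfrsf1a, the main receptor for tumor necrosis factor, read at 5.45 and 6.17 RPKM before and at 14.7 and 13.5 RPKM in mixed medium (log2 fold change 1.42, SE 0.34, edgeR adjusted p = 0.0482). With any 1 of the 6 libraries left out its adjusted p was above the threshold (0.0577 to 0.219). After co-culture 4 of 48 rose (4.59% of all genes), namely Gsdma, Txnip, Tnfrsf1a and the death receptor Fas, and 2 of 48 fell (5.72%), namely the death receptor Tnfrsf10b and the gasdermin Gsdme. Leaving out single libraries lost the calls of Fas in all 6 cases, Gsdme in 4, Tnfrsf10b in 3, Txnip in 2 and Tnfrsf1a in 1, with replicate 1 of activated T cells among them each time. Gsdme was read at 1.74 and 1.72 RPKM in activated and at 0.178 and 0.220 RPKM in co-cultured T cells (log2 fold change -2.91, SE 0.63, edgeR adjusted p = 0.0270). Tnfrsf10b was read at 4.85 and 3.97 RPKM in activated and at 0.620 and 0.178 RPKM in co-cultured T cells. Against mixed medium, Gsdma alone rose among the 48 (0.261% of all genes), a call lost without library a (adjusted p = 0.0530) or library b (0.0627) of T cells in mixed medium, with library size only (0.0572) and with all 10 libraries in 1 fit (0.0542). It had 0 reads in activated T cells and in mixed medium and 273 and 217 reads (6.58 and 5.63 RPKM) after co-culture. In keratinocytes Gsdma was at 35.2 and 36.5 RPKM alone and at 6.81 and 0.667 RPKM after co-culture. Krt14, a basal keratinocyte keratin, stood at 61.6 and 16.8 RPKM in co-cultured T cells and at 0.350 to 1.06 RPKM in the other T cells. It stood at 7240 to 11836 RPKM in the keratinocyte libraries. The part of keratinocyte RNA in the Gsdma reads was not tested.

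The cell types were compared by keratinocytes alone against activated T cells in a fit of all 10 libraries. Mlkl rose in keratinocytes, with 9.83 and 6.46 RPKM against 3.73 and 1.43 RPKM (log2 fold change 1.83, SE 0.58, 3.55-fold, edgeR adjusted p = 0.0365), where the median over all genes was 0.14. This was the 1 of 8 genes called, against 35.5% of all genes tested (22.5% called higher). An unadjusted p under 0.05 was found for 2 of 8 (46.4% of all genes), and DESeq2 called 1 of 8 (43.1%). The Mlkl call was lost when the data were scaled by library size only (adjusted p = 0.0671), with limma on log2(RPKM + 1) (adjusted p = 0.0520) and with only the 4 libraries of both groups (adjusted p = 0.0589). It was also lost without replicate 1 (adjusted p = 0.201) or replicate 2 (adjusted p = 0.0764) of keratinocytes alone, and without replicate 2 of activated T cells (adjusted p = 0.205).

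Gsdmd lay the other way, with 1.98 and 6.35 RPKM in keratinocytes and 8.26 and 13.8 RPKM in activated T cells (log2 fold change -1.26, SE 0.55, edgeR adjusted p = 0.103). Gsdmd passed without replicate 2 of keratinocytes alone (log2 fold change -2.46, adjusted p = 0.0191) and with limma (adjusted p = 0.0324 and 0.0325), and its log2 fold change was -0.72 without replicate 1 of keratinocytes alone and -0.87 without replicate 2 of activated T cells. Casp4 and Ripk3 were also lower in both keratinocyte libraries, with log2 fold changes of -1.05 (SE 0.61) and -0.55 (SE 0.31). Casp8 was higher in both, with a log2 fold change of 0.63 (SE 0.30), while Casp1 and Pycard overlapped. Counted by RPKM, 2 of 8 genes were above in both libraries (38.7% of all genes) and 4 of 8 below (35.1%). Of the wider list 9 of 50 genes were higher in keratinocytes (22.5% of all genes), among them Gsdma, Casp14, Gsdmc, Casp12 and Nlrp10, and 11 of 50 were higher in activated T cells (1740 of 13394 of all genes), among them Gbp5, Gbp2, Irgm1, Aim2 and Gsdme. With single libraries left out the Aim2 call was lost in 8 of 10 cases, Gsdmc in 3, Gsdme in 2, and Casp12 and Gbp2 in 1 each. Gsdma, Casp14, Gsdmc and Casp12 had 0 reads in both libraries of activated T cells.

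Whether co-culture acted differently on keratinocytes and T cells was tested by an interaction in 8 libraries, with T cells in mixed medium as the T-cell control. Casp4 was higher in co-cultured keratinocytes and lower in co-cultured T cells than in their controls (difference of log2 fold changes 2.15, SE 0.72, unadjusted p = 0.0187, edgeR adjusted p = 0.501). For Casp1 it was 1.59 (SE 0.71, unadjusted p = 0.0578) and for Mlkl 1.36 (SE 0.69, unadjusted p = 0.0899). EdgeR called 0 of 8 genes beside 0.576% of all genes (0.0530% higher, 0.523% lower). An unadjusted p under 0.05 was found for 1 of 8, Casp4 (7.06% of all genes), and DESeq2 called 0 of 8 (2.67%). In the wider list 2 of 49 genes passed, Il18bp and Gsdma.

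Ordered by group means, Casp1 stood highest in co-cultured keratinocytes at 25.1 ± 5.67 RPKM (SD, n = 2), apart from T cells in mixed medium at 12.9 ± 2.98 RPKM, whereas each of the lower groups overlapped the one above it. Gsdmd fell in the order of co-cultured T cells (17.9 ± 1.03 RPKM), T cells in mixed medium (15.5 ± 0.432 RPKM), activated T cells (11.0 ± 3.94 RPKM), co-cultured keratinocytes (8.96 ± 0.498 RPKM) and keratinocytes alone (4.16 ± 3.09 RPKM). Of these neighbours, activated T cells and co-cultured keratinocytes overlapped. Mlkl stood highest in co-cultured keratinocytes (20.1 ± 11.5 RPKM), then in keratinocytes alone (8.14 ± 2.38 RPKM), with the 3 T-cell groups between 2.58 and 3.91 RPKM. Casp8 had both keratinocyte groups on top and T cells in mixed medium lowest (17.3 ± 0.431 RPKM). Pycard's groups overlapped with their neighbours throughout.

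Within a library some ratios of partners, but not all, differed between the cell types. Mlkl over Ripk3 was 0.564 to 1.57 in the 4 keratinocyte libraries and 0.0805 to 0.256 in the 6 T-cell libraries. Gsdmd over Casp1 was 0.320 to 0.474 in keratinocytes and 1.01 to 2.39 in T cells. Both ratios separated the cell types in all 10 libraries. So did Casp8 over Ripk3, at 2.21 to 2.86 in keratinocytes and 0.713 to 2.06 in T cells. Casp1 over Casp4 overlapped, at 4.53 to 7.01 in keratinocytes and 1.61 to 6.94 in T cells. These ratios are descriptions chosen after the values were seen.

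Genes whose levels over the 10 libraries were most like those of a member were sought among 10745 genes by Pearson's r of log2(RPKM + 1), as a description of libraries that share a cell type and often a replicate number. For Gsdmd these were B2m (0.986), H2-D1 (0.981) and H2-K1 (0.975), the light chain and heavy chains of classical major histocompatibility complex class I. For Casp4 they were Tmed2 (0.932), the chemokine gene Cxcl10 (0.882) and Psmb4 (0.852). For Casp8 they were Stx3, Gadd45b and Ifi204, for Casp1 Ap2s1, Tmem176a and Selenow, for Mlkl Enc1, Gatad1 and Csrp1, for Ripk3 Ogfr, Sgo1 and Anapc5, and for Pycard Pqlc3, Dedd2 and Tspo.

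The exons of 6 of the 9 genes, all but Nlrp1b, Pycard and Casp8, shared no stretch of 59 bases, the read length, with another gene. Of the Pycard exon reads 52.2% were uniquely mapped, and 427 of 3776 such stretches of its exons lie on the opposite strand of Gm45205, which had 0 exon reads in the tables. The strand used for counting is not given in the sources used here, so reads of the pair cannot be told apart. Reads that cross Pycard exon junctions numbered 186 and 485 in keratinocytes alone, 209 and 591 after co-culture, 118 and 233 in activated T cells, 344 and 605 in mixed medium and 358 and 376 in co-cultured T cells. They held the same order of libraries within the keratinocyte groups and the same separation of activated T cells from the other T cells as all exon reads. For Casp8 95.6% of reads were uniquely mapped.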

How the data were processed

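RNA was measured in 10 libraries of 5 groups, grouped by their labels. Per the labels the build was GRCm38. The authors prepared libraries by poly(A) selection (NEBNext Ultra II kit), read 59 bases from a single end and aligned them in the CLC Genomics Workbench with default settings. The annotation release and the counting options are not given in the sources used here. The authors deposited, per gene, raw counts of all and of uniquely mapped exon reads, and RPKM values, which equal reads per exon length and library total. Other deposited columns (TPM, intron reads and the like) were not used, except exon-exon reads of Pycard.

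Differences were computed from all exon counts in R 4.3.3 by edgeR 4.0.16 with TMM scaling (glmQLFit, glmQLFTest) after filterByExpr, with Benjamini-Hochberg adjustment over all genes tested and a threshold of 0.05. SE is the log2 fold change divided by the square root of F. The 6 comparisons used 4 keratinocyte, 6 T-cell, 8 or all 10 libraries. Other settings tried were DESeq2 1.42.0, log-scale RPKM in limma 3.58.1 with a pseudocount of 1 or of 0.1, other scalings, filters (none, or 10 reads in every library), unique reads, other sets of libraries, the replicate block and each library left out. The fits were tested on simulated data, where, with a spread like that of these libraries, DESeq2 made more false calls than its threshold states. Python 3.11.15 with pandas 2.3.3 and matplotlib 3.10.9 made tables and plots. The 9 genes, the wider list and the markers were chosen with earlier results of these data known. Named from the wider list are up to 5 called genes per direction with the largest change and, where none was called, up to 5 with at least 5 RPKM in either group and no overlap. For likeness they are the 3 genes with the highest r among those with a mean of at least 1 RPKM. No pair of replicates looked like 1 library deposited again. Promoters came from RefSeq. Depth was 12864931 to 18019609 exon reads per library. Floors express counting error alone, because these reads carried no molecular identifiers. Assays of the study other than these libraries were not analysed here.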

Additional observations from a re-analysis of the deposited data

Results flagged for a closer look

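The effect of co-culture differed between keratinocytes and T cells for 2 genes of the wider list, by the interaction of the 8 libraries. For Il18bp, the decoy of interleukin 18, the difference of log2 fold changes was 5.52 (SE 0.71, edgeR adjusted p = 0.0239). It was higher in both co-cultured keratinocyte libraries, whereas T cells had 2.01 and 1.63 RPKM in mixed medium and 1.11 and 1.14 RPKM after co-culture. With single libraries left out the adjusted p ranged from 0.0203 to 0.130, and 6 of the 8 lost the call.

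For Gsdma, the epidermal gasdermin, the difference was -14.44 (SE 1.98, edgeR adjusted p = 0.0467), a fitted value that depends on the prior count, since T cells in mixed medium had 0 reads. It was lower in both co-cultured keratinocyte libraries (6.81 and 0.667 RPKM) than in keratinocytes alone (35.2 and 36.5 RPKM). Co-cultured T cells had 6.58 and 5.63 RPKM of Gsdma. Their keratinocyte marker sums of 111 and 60.4 RPKM lay above those of T cells in mixed medium. Keratinocyte libraries had marker sums of 14169 to 19095 RPKM. With single libraries left out the difference ran from -16.72 to -13.60, and 6 of the 8 lost the call. The part of keratinocyte RNA was not tested.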

How the results depend on the processing

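The count of the 9 genes called stayed at 0 under every alternative run for co-cultured against lone keratinocytes, for co-cultured T cells against mixed medium and for the interaction. For mixed medium against activated T cells it rose from 0 to 1 with DESeq2, no filter, 10 reads in every library, unique reads and both limma scales, and ran from 0 to 1 with libraries left out. For co-cultured against activated T cells it rose to 1 with DESeq2 and no filter, and ran from 0 to 1. In each case the gene was Pycard. For keratinocytes alone against activated T cells it was 0 with library size only, 0 with only the 4 libraries of both groups, 2 with limma on log2(RPKM + 0.1) and 3 with the replicate block in those 4 libraries (Pycard, Gsdmd and Mlkl), and ran from 0 to 1 with libraries left out, the gene being Gsdmd without replicate 2 of keratinocytes alone and Mlkl otherwise. Labels do not say that the replicate numbers mark a shared experiment. Deviations of same-numbered libraries correlated over genes with r = 0.558 (both keratinocyte groups) and 0.243 (keratinocytes alone and activated T cells). With this block, 0 of the 9 genes and 2 genes in all were called between the keratinocyte groups.

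Of 739 refitted values of single genes among the 9, 26 changed sign. Casp8 in co-cultured against activated T cells was -0.14 with library size only and -0.15 and -0.16 with limma, and Nlrp1b in co-cultured T cells against mixed medium -0.042, -0.0062 and -0.017. With libraries left out, Pycard ran from -0.60 to 1.33 in keratinocytes, Casp4 from -0.37 to 0.95 in mixed medium, and in co-cultured against activated T cells Casp4 from -0.97 to 0.36, Casp8 from -0.12 to 0.22 and Ripk3 from -0.58 to 0.10. Against mixed medium Nlrp1b ran from -0.23 to 0.28, Pycard from -0.62 to 0.12, Casp1 from -0.43 to 0.21 and Mlkl from -0.51 to 0.33. Casp1 between the cell types ran from -0.41 to 1.58. In the interaction Nlrp1b ran from -2.15 to 5.70, Pycard from -0.35 to 1.62 and Casp8 from -0.28 to 0.043. The cause was not tested.

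Over all genes the calls ran from 0 to 1164 in keratinocytes (0 as reported), 24 to 1947 (776) in mixed medium, 266 to 2425 (1222) and 0 to 141 (31) in co-cultured T cells, 2394 to 5788 (4754) between the cell types and 0 to 353 (76) in the interaction. With library size only the median log2 fold change of all genes was -0.13 in mixed medium (-0.01 with TMM), -0.17 in co-cultured against activated T cells (-0.01), where 396 of 1158 calls were rises in place of 544 of 1222, and -0.020 between the cell types (0.14). With 2 libraries a group and 3 reads as the floor, the sensors could not be compared in keratinocytes.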

Other observations

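Interleukin 1 and interleukin 18 cytokines, with their receptors and inhibitors, made up 10 genes of the wider list, described here after their values were seen. Il18, the interleukin 18 precursor, was read at 28.2 and 59.2 RPKM in lone keratinocytes and at 8.49 and 12.7 RPKM after co-culture (log2 fold change -1.97, SE 0.53, unadjusted p = 0.0146, edgeR adjusted p = 0.658). Both co-cultured libraries were below both others (24.3% of all genes tested), while its decoy Il18bp lay above (19.8%). Il1rn, Il1r1, Il1r2, Il1rap, Il18r1 and Il18rap overlapped between the keratinocyte groups. Il1a, whose precursor Casp1 does not cleave, was read at 27.6 and 8.30 RPKM alone and at 56.5 and 16.3 RPKM after co-culture, with overlap. Il1b, the classical Casp1 substrate, had 1 and 0 reads alone and 6 and 0 reads after co-culture, 12 and 41 reads in activated T cells and 0 in the other T cells.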
